A study of Homo sapiens with 16 samples.

Results

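The 31 genes described here encode enzymes of cholesterol and fatty acid synthesis and the proteins that control their transcription. They were taken by gene symbol from the deposited table, a rule that uses no measured value, and all 31 were found among its 26475 genes. The list itself was chosen with earlier results of these data known, so that its shares set beside those of all genes are descriptive. By role, 7 act in the mevalonate steps, 11 in the squalene and sterol steps, 6 in the control of the pathway and 7 in fatty acid synthesis, elongation and desaturation. Expression was measured by RNA-seq in MCF10A, a human breast epithelial cell line that became immortal in culture and does not form tumors.

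The study asked whether DDR1, a receptor tyrosine kinase that binds collagen, and the transcription factor RUNX1 with its partner CBFβ act on shared gene networks. The 16 libraries fell into 4 groups of 4. Control received DMSO, the solvent, and no collagen, whereas Collagen received collagen 1 with DMSO. DDR1i received collagen 1 with DDR1-IN-1, a small molecule inhibitor of the DDR1 kinase, and RUNXi received collagen 1 with AI-10-104, which blocks the binding of RUNX proteins to CBFβ. The methods give 2 µM for DDR1-IN-1 and 5 µM for AI-10-104, each present for 48 h, with collagen 1 at 0.05 mg/mL over the last 24 h. All groups are of this 1 cell line, and the labels do not say whether replicates came from separate cultures, so that p-values measure the spread between these libraries, which may be technical.

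Total counts ranged from 12184619 to 44332378 per library, and the lowest count of any of the 31 genes in any library was 49 (*TM7SF2*). Values below are normalized CPM, in which the counts of each library are scaled to a common total after TMM normalization. The log2 fold change is the difference of 2 group levels on the log2 scale, and an adjusted p is corrected over all genes tested. The basal epithelial keratin *KRT5* stood between 6971 and 11592 CPM in every library, the summed fibroblast, leukocyte and endothelial markers reached at most 6.35, 18.7 and 2.40 CPM, and the adipocyte genes *ADIPOQ* and *LEP* were at 0 in all 16 libraries. The mRNA of *DDR1* (108 to 163 CPM), *RUNX1* (36.8 to 69.5 CPM) and *CBFB* (54.5 to 74.8 CPM) is no check of the inhibitors, which act on the proteins. Collagen replicate 3 was left out of the tests, as the authors did, and its values are given beside the other 3 Collagen libraries. Collagen replicate 4, which stayed in the tests, stood apart. Within the lipid genes, *FASN* and *SCD* together made up 17.9% of the summed CPM there and 25.6% to 32.0% in the other 15 libraries. Over all genes, the chi-square between its counts and those of replicates 1 and 2 was 57.5 and 55.8 per degree of freedom. For replicate 3 against replicates 1 and 2 it was 36.5 and 40.5, and between replicates 3 and 4 it was 105.8.

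Cells make cholesterol from acetyl-CoA through mevalonate, isoprenoid diphosphates, squalene and lanosterol, and make fatty acids from acetyl-CoA through malonyl-CoA. Transcription of both pathways is driven by the SREBP transcription factors, encoded by *SREBF1* and *SREBF2*. When sterols are scarce, SCAP escorts the SREBP precursors from the endoplasmic reticulum to the Golgi, where proteases release the active factor. When sterols are plentiful, INSIG1 and INSIG2 hold SCAP and the precursor back. *INSIG1* is itself a target of the SREBPs, so that its mRNA is often read together with that of the enzymes.

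The sequence before the start site is shown for the 4 genes with the largest difference between the inhibitors among those that passed the test and were in the promoter table (*HMGCS1*, *SCD*, *MVD* and *INSIG1*), and for *SREBF2*, where alone among the matched genes the sterol regulatory element core was found. Each run holds the 250 bases before the RefSeq start site, 5′ to 3′ on the gene's strand (GRCh38.p14). The positions are chr5:43313413-43313662 on the minus strand, chr10:100346983-100347232 on the plus strand, chr16:88663092-88663341 on the minus strand, chr7:155297628-155297877 on the plus strand and chr22:41832855-41833104 on the plus strand. Capitals mark CCAAT boxes (CCAAT or its reverse complement ATTGG), the RUNX motif (TGTGGT or TGCGGT) and the sterol regulatory element core (TCACNCCAC).
HMGCS1: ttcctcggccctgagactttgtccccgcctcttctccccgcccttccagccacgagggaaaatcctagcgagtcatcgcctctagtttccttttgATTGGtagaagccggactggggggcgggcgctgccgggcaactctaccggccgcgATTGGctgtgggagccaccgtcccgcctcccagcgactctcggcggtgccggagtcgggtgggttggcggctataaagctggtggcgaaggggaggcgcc
SCD: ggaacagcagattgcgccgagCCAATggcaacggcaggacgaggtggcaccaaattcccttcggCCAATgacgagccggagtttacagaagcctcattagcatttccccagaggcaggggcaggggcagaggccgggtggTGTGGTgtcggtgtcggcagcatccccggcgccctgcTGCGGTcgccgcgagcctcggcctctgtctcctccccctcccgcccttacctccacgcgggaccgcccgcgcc
MVD: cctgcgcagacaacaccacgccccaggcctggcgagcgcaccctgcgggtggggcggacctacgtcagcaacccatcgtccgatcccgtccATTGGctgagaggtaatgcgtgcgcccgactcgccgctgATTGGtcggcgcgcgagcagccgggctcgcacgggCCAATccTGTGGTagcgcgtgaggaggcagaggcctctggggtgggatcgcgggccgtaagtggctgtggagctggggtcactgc
INSIG1: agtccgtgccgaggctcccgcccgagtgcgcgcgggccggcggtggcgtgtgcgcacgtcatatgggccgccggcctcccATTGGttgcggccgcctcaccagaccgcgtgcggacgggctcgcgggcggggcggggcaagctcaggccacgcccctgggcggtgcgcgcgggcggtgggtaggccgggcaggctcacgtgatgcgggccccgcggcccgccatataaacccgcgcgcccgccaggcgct
SREBF2: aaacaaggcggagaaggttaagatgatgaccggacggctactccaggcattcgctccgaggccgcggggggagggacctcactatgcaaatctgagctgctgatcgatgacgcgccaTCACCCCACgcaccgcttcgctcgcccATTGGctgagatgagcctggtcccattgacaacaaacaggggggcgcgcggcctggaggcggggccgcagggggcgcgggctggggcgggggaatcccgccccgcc

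Of the 31 genes, 27 were matched to the RefSeq promoter table, in which a promoter runs from 250 bases before to 50 bases after the start site. *ACAT2*, *FASN*, *FDFT1* and *SQLE* were not matched. The 4 motifs were each searched on both strands, and matches of different motifs may overlap. The CCAAT box, bound by NF-Y, a factor known to act beside the SREBPs, was in 17 of the 27 (63.0%) and in 35.7% of all 27305 promoters. The GC box (GGGCGG), bound by SP1, was in 25 of the 27 (92.6%) and in 44.6% of all promoters. The RUNX motif was in 6 of the 27 (22.2%), namely *ELOVL6*, *LSS*, *MVD*, *SC5D*, *SCAP* and *SCD*, and in 19.4% of all promoters. Matches had to be exact, so that variant forms of a motif were not counted. The shares of all promoters are over the whole promoter table, which was not limited to genes expressed in these cells. The sterol regulatory element core was in *SREBF2* alone (3.7% of the 27) and in 1.15% of all promoters. Its 9 letters begin 133 bases before the start site of *SREBF2*, and a CCAAT box begins 106 bases before it. In *SCD*, the pair of RUNX motifs begin 110 and 73 bases before the start site, and in *MVD* the RUNX motif begins 78 bases before it, next to a CCAAT box at 85 bases. These letters mark sequence matches only.

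Per length of the canonical transcript, the highest levels over the 16 libraries were those of *FDPS* (332 CPM per kb) and *FDFT1* (320.4 CPM per kb), the enzymes on either side of the branch point at farnesyl diphosphate. *SCD* (198 CPM per kb), which desaturates stearoyl-CoA, and *EBP* (157 CPM per kb), the sterol isomerase, followed. The lowest levels were those of *STARD4* (5.16 CPM per kb), *TM7SF2* (3.88 CPM per kb) and *INSIG2* (2.70 CPM per kb). *INSIG1*, at 29.1 CPM per kb, was the more abundant of the INSIG transcripts, and *SREBF2*, at 45.6 CPM per kb, stood above *SREBF1*, at 23.3 CPM per kb.

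The summed CPM of the 31 genes was lower in each RUNXi library than in any other library. It was 5872, 5990, 5471 and 5198 with RUNXi, against 7272, 7183 and 6477 in Collagen replicates 1, 2 and 4 and 7284 in Collagen replicate 3. The sums with DDR1i were 8141, 7603, 7534 and 7439, and those of Control were 7948, 7292, 7226 and 6389. A sum over genes is led by its most abundant members, and in bulk RNA a smaller share of cells that express a gene cannot be told apart from less RNA of it per cell.

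**Figure D1:**
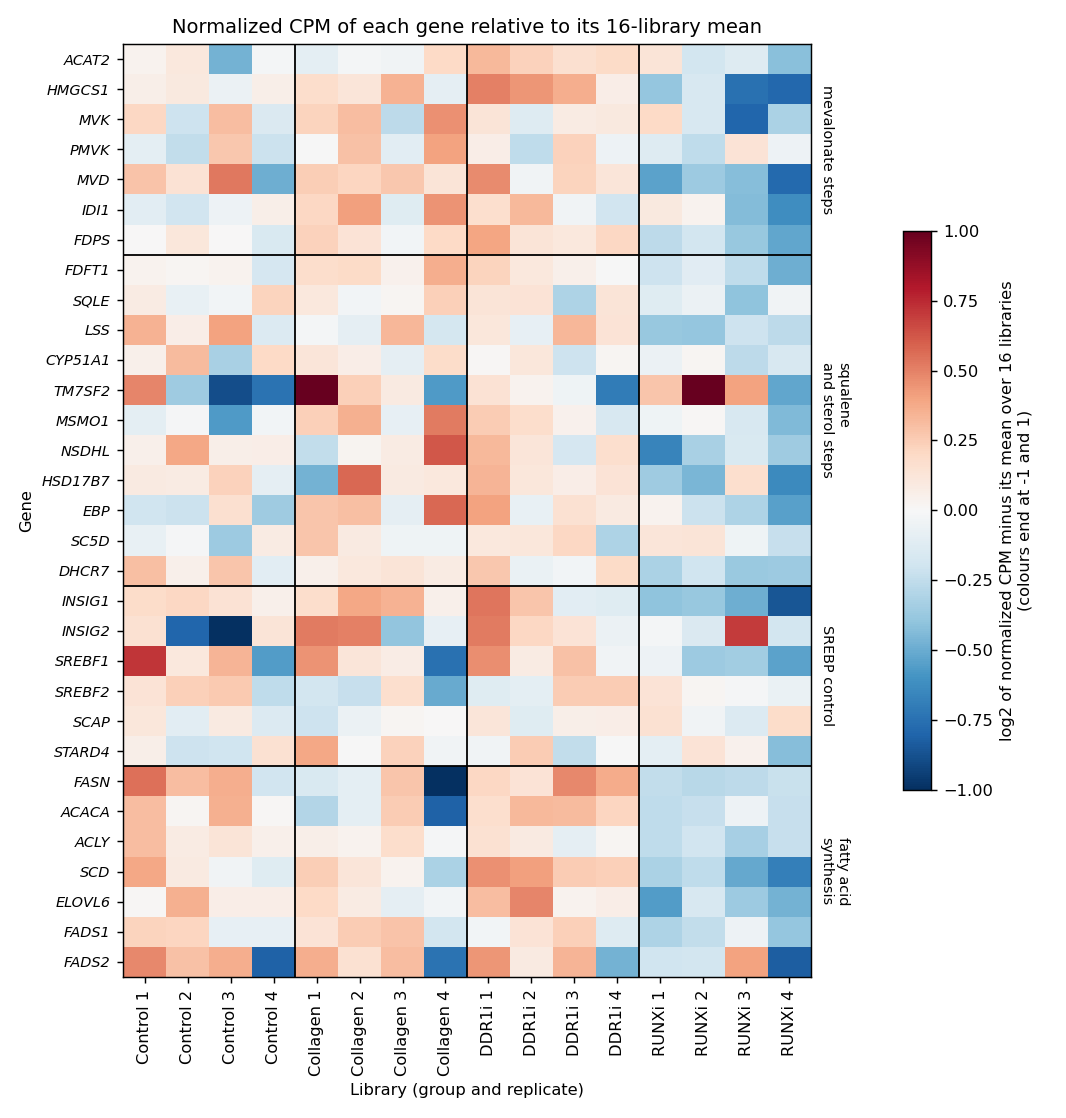
Each cell is the log2 normalized CPM of 1 gene in 1 library minus the mean of that gene over the 16 libraries, with genes in rows by role and libraries in columns by group. The RUNXi columns are mostly blue in the mevalonate and fatty acid rows, Collagen replicate 4 is mostly red in the mevalonate and sterol rows and blue for *FASN* and *ACACA*, and the scarce *TM7SF2* and *INSIG2* differ widely among libraries of a group.

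With RUNXi, 11 of the 31 genes were lower than with Collagen alone and 0 were higher (edgeR's quasi-likelihood test, Benjamini-Hochberg adjusted p under 0.05), where over all 13548 genes tested 1.46% were called lower and 2.59% higher. The 11 were *HMGCS1*, *MVD*, *IDI1*, *FDPS*, *FDFT1*, *MSMO1*, *EBP*, *DHCR7*, *INSIG1*, *SCD* and *ELOVL6*. The log2 fold change was negative for 26 of the 31, with a median of -0.33, and the median over all genes tested was 0.005. By role, 4 of 7 mevalonate genes, 4 of 11 squalene and sterol genes, 1 of 6 control genes and 2 of 7 fatty acid genes fell. At an unadjusted p under 0.05, 18 of the 31 were lower and 1, *SREBF2*, was higher, where 10.2% of all genes tested were lower and 10.8% higher at that threshold. The number rested on single libraries, since it was 4 without RUNXi replicate 4, 5 without RUNXi replicate 3 and 7 without Collagen replicate 2 or 4. Over all genes tested, those called lower moved as well, from 198 to 71, 61, 208 and 42 in the same order. Over the 11 fits that each left out a library, *INSIG1*, *MVD* and *FDPS* passed in all, *FDFT1* failed without RUNXi replicate 4, *EBP* without Collagen replicate 4 and *HMGCS1* without RUNXi replicate 3 or 4. *MSMO1* passed in 8, *IDI1* and *SCD* in 6, *DHCR7* in 5 and *ELOVL6* in 4 of these fits. Some of the fits left out a DDR1i library, which is in neither group compared. Among the fits without a Collagen or RUNXi library, *DHCR7* passed only without Collagen replicate 1 and *ELOVL6* only without RUNXi replicate 2. There, *SCD* passed only without Collagen replicate 4 or RUNXi replicate 2, and *IDI1* only without Collagen replicate 1 or RUNXi replicate 1 or 2. All 11 genes stayed lower with RUNXi in each of the 11 fits, at log2 fold changes between -0.80 (*INSIG1*) and -0.38 (*SCD* and *DHCR7*).

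Among the mevalonate genes, *HMGCS1* (GRCh37, chromosome 5, 43287572 to 43313614, minus strand) encodes the synthase that makes HMG-CoA. It was at 219.5, 257, 171 and 167 CPM in the 4 RUNXi libraries, at 325, 312 and 269.9 CPM in Collagen replicates 1, 2 and 4, and at 366 CPM in Collagen replicate 3. Control libraries held 299, 307, 276 and 298 CPM and DDR1i libraries 407, 389, 369 and 301 CPM. Every RUNXi library thus lay below all 12 others. Against Collagen its log2 fold change was -0.58 ± 0.14 (SE, adjusted p = 0.0234).

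*MVD* (chromosome 16, 88718343 to 88729569, minus strand), the decarboxylase that makes isopentenyl diphosphate, had the smallest adjusted p of the 31. It was at 69.9, 78.8, 75.4 and 59.0 CPM with RUNXi against 119.9, 118 and 111 CPM in the Collagen libraries tested and 122 CPM in Collagen replicate 3. Control ranged from 72.1 to 146 CPM, so that its replicate 4 lay among the RUNXi libraries. Its log2 fold change was -0.72 ± 0.13 (SE, adjusted p = 0.00467).

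*FDPS* (chromosome 1, 155278539 to 155290457, plus strand), which makes farnesyl diphosphate, was at 387, 409.7, 356 and 323 CPM with RUNXi and at 543, 511 and 534 CPM with Collagen. Collagen replicate 3 held 456 CPM and Control 418 to 502 CPM, all above the RUNXi libraries. For *FDPS* the log2 fold change was -0.53 ± 0.11 (SE, adjusted p = 0.013). *IDI1* (chromosome 10, 1085092 to 1095059, minus strand), the isomerase between *MVD* and *FDPS*, was at 100.0, 95.9, 69.0 and 60.5 CPM with RUNXi and at 108, 124 and 127 CPM with Collagen. Its Collagen replicate 3, at 85.7 CPM, and its Control libraries, at 81.5 to 97.3 CPM, lay within the RUNXi range. For *IDI1* the log2 fold change was -0.56 ± 0.16 (SE, adjusted p = 0.0452). Of the other mevalonate genes, the kinase *MVK* (log2 fold change -0.56, adjusted p = 0.0665), the kinase *PMVK* (-0.32) and the thiolase *ACAT2* (-0.17) did not pass.

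In the squalene and sterol steps, *FDFT1*, the squalene synthase, was at 559.7, 596, 543 and 459.6 CPM with RUNXi and at 728, 737 and 831 CPM with Collagen, with 666 CPM in Collagen replicate 3. Control held 660.2, 655, 662 and 576 CPM, the last of which lay among the RUNXi libraries. For *FDFT1* the log2 fold change was -0.51 ± 0.11 (SE, adjusted p = 0.0147) against Collagen and -0.24 (adjusted p = 0.576) with Control as the reference. *EBP* (chromosome X, 48380187 to 48387104, plus strand), the sterol isomerase, was at 177, 149, 139.6 and 119 CPM with RUNXi and at 209, 213 and 257 CPM with Collagen (log2 fold change -0.64 ± 0.14 SE, adjusted p = 0.0128). Collagen replicate 3, at 163 CPM, and Control, at 135 to 194 CPM, overlapped the RUNXi libraries of *EBP*.

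*MSMO1* (chromosome 4, 166248819 to 166264316, plus strand), the sterol methyl oxidase, was at 129, 135, 119.7 and 98.4 CPM with RUNXi and at 158, 171 and 192 CPM with Collagen (log2 fold change -0.53 ± 0.13 SE, adjusted p = 0.0244). Collagen replicate 3, at 126 CPM, and Control, at 90.4 to 132 CPM, overlapped the RUNXi libraries of *MSMO1*. *DHCR7* (chromosome 11, 71139239 to 71163914, minus strand), the reductase of a last step to cholesterol, was at 245, 266, 236 and 237 CPM with RUNXi and at 317, 329 and 324 CPM with Collagen (log2 fold change -0.40 ± 0.11 SE, adjusted p = 0.0424). Unlike *MSMO1*, *DHCR7* was also lower in every RUNXi library than in Collagen replicate 3 (335 CPM) and in Control (284 to 376 CPM). The other 7 genes of these steps (*SQLE*, *LSS*, *CYP51A1*, *TM7SF2*, *NSDHL*, *HSD17B7* and *SC5D*) did not pass, with log2 fold changes between -0.55 (*NSDHL*) and 0.08 (*TM7SF2*).

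Among the control genes, *INSIG1* (chromosome 7, 155089486 to 155101945, plus strand) fell, and it was the only one of the 11 to stay called in every alternative run for this comparison. It was at 62.0, 63.3, 58.7 and 45.3 CPM with RUNXi, at 92.8, 107 and 84.9 CPM with Collagen and at 104 CPM in Collagen replicate 3. Control held 93.2, 94.6, 90.8 and 84.9 CPM, and DDR1i 119, 99.6, 76.2 and 75.6 CPM, again all above the RUNXi libraries. Its log2 fold change was -0.73 ± 0.16 (SE, adjusted p = 0.014). *SREBF1* and *SREBF2*, which encode the factors themselves, did not pass and had fold changes of opposite sign, -0.34 (adjusted p = 0.358) and 0.31 (adjusted p = 0.141) on the log2 scale. The values of *INSIG2* (-0.22), *SCAP* (0.13) and *STARD4*, a sterol carrier (-0.21), did not pass either.

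In fatty acid synthesis, *SCD* (chromosome 10, 102106990 to 102124583, plus strand) was at 811, 846, 707 and 629.8 CPM with RUNXi. Collagen libraries held 1197, 1098 and 812 CPM, of which the last, replicate 4, lay among the RUNXi libraries, and Collagen replicate 3 held 1034 CPM. For *SCD* the log2 fold change was -0.47 ± 0.13 (SE, adjusted p = 0.04). *ELOVL6* (chromosome 4, 110967002 to 111120355, minus strand), which elongates palmitate, was at 71.6, 94.5, 81.8 and 75.9 CPM with RUNXi and at 121, 112 and 103 CPM with Collagen, with 99.0 CPM in replicate 3. Its log2 fold change was -0.48 ± 0.14 (SE, adjusted p = 0.0472), and its RUNXi libraries lay below all 12 others.

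The enzymes that make the fatty acid chain did not pass with RUNXi. *FASN*, the fatty acid synthase, was at 703, 686, 696 and 714 CPM with RUNXi and at 748, 779.9 and 350.0 CPM in Collagen replicates 1, 2 and 4 (log2 fold change 0.16, 95% interval -0.25 to 0.56). The RUNXi libraries lay below the other Collagen libraries and Control (731 to 1223 CPM), and without Collagen replicate 4 the log2 fold change was -0.12 (adjusted p = 0.638). With Control as the reference in place of Collagen, the log2 fold change of *FASN* was -0.54 (adjusted p = 0.0425). *ACACA*, the acetyl-CoA carboxylase, had a log2 fold change of 0.18 against Collagen (95% interval -0.10 to 0.45). *ACLY*, the citrate lyase that supplies acetyl-CoA, had a log2 fold change of -0.29 (adjusted p = 0.111), and its RUNXi libraries (414 to 455 CPM) lay below all 12 others (487 to 645 CPM). The desaturases *FADS1* (-0.33) and *FADS2* (-0.14) did not pass. Their genes overlap on opposite strands, and without knowledge of strand their counts cannot be fully told apart.

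**Figure D2:**
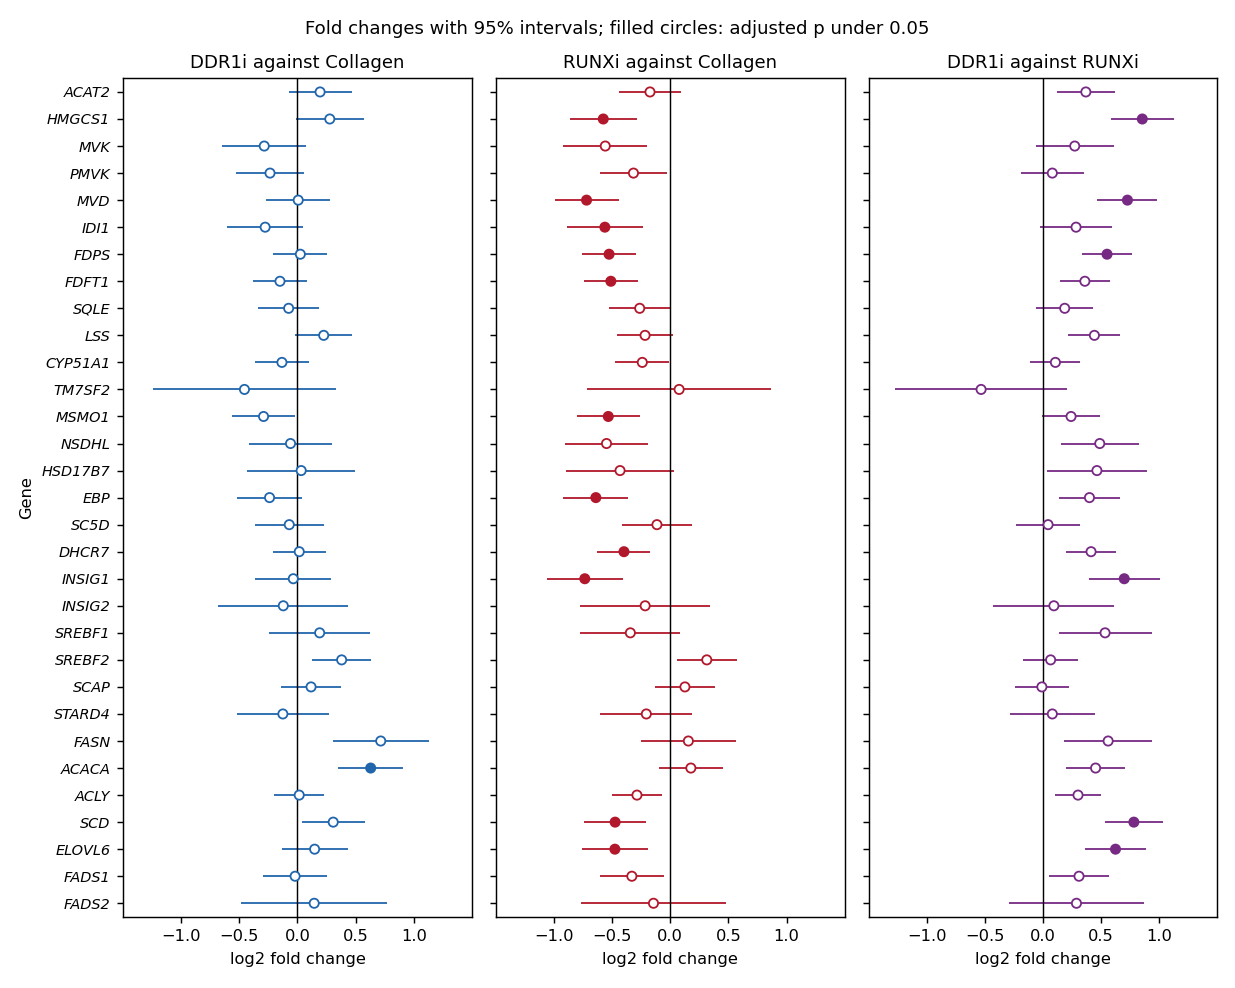
Log2 fold changes with 95% intervals of the 31 genes (edgeR), in the order of their roles, for DDR1i against Collagen, RUNXi against Collagen and DDR1i against RUNXi. Filled circles have an adjusted p under 0.05, and of these 1 lies to the right in the first panel, 11 to the left in the second and 6 to the right in the third.

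Without a model, 15 of the 31 genes (48.4%) had every RUNXi library below Collagen replicates 1, 2 and 4, and 8.79% of all genes tested did. For 14 (45.2%) every RUNXi library was below every DDR1i library, against 2.27% of all genes tested. For 7 (22.6%) the RUNXi libraries were below all 12 other libraries, Collagen replicate 3 and Control included, against 0.31% of all genes tested. These 7 were *HMGCS1*, *FDPS*, *LSS*, *DHCR7*, *INSIG1*, *ACLY* and *ELOVL6*. *LSS*, the cyclase that makes lanosterol, and *ACLY* were separated in this way but did not pass the test against Collagen, where *LSS* had a log2 fold change of -0.22 (adjusted p = 0.293).

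Which genes passed also depended on the reference libraries and on a length correction. With Collagen replicate 3 included, 3 of the 31 were lower with RUNXi (*HMGCS1*, *MVD* and *INSIG1*), with log2 fold changes of -0.66, -0.75 and -0.78. There, 29 of all 13361 genes tested were called lower, against 198 of 13548 in the main fit. Collagen replicate 3 lay below the other Collagen libraries, toward RUNXi, for *IDI1*, *FDPS*, *FDFT1*, *MSMO1*, *EBP* and *ELOVL6*, and above them for *HMGCS1*, *MVD* and *DHCR7*. With Control as the reference, 3 were lower (*INSIG1*, *SCD* and *FASN*), and the log2 fold changes of *EBP* (-0.10) and *MSMO1* (0.011) were near 0. Of all 13213 genes tested there, 21 were called lower. With a trend over transcript length removed from each library, 6 were lower (*HMGCS1*, *MVD*, *INSIG1*, *SCD*, *ELOVL6* and *ACLY*). Of all 12281 genes tested there, 119 were called lower.

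**Figure D3:**
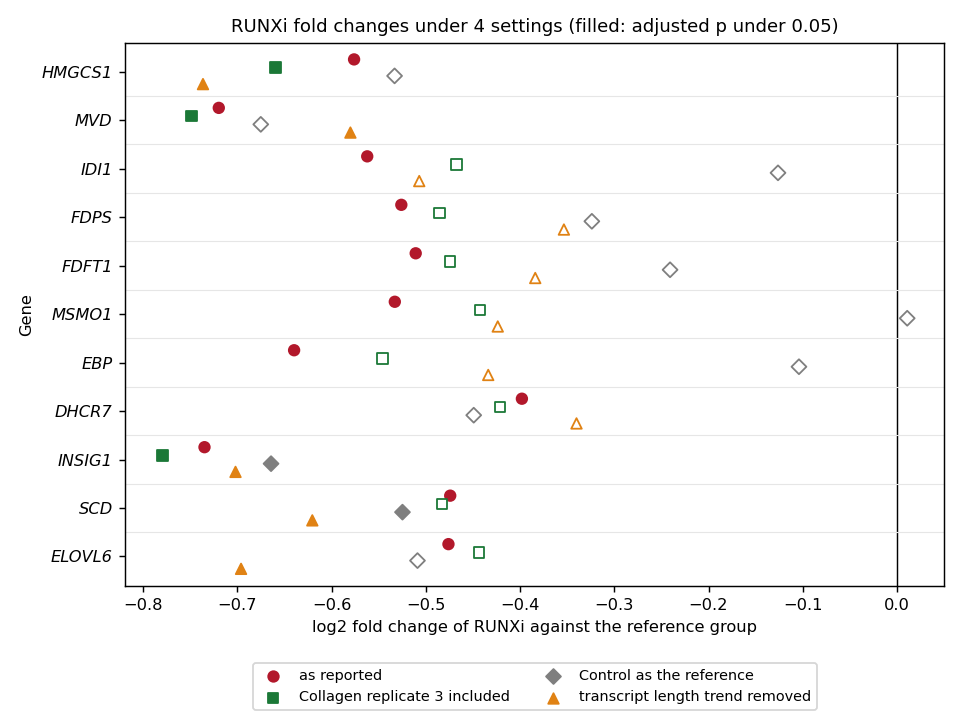
Log2 fold change of RUNXi for the 11 genes that passed, under 4 settings, where filled symbols have an adjusted p under 0.05. The values of *HMGCS1*, *MVD*, *FDPS*, *DHCR7*, *INSIG1*, *SCD* and *ELOVL6* lie at -0.32 or further left in every setting shown, while those of *IDI1*, *FDFT1*, *MSMO1* and *EBP* move toward 0 with Control as the reference.

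The inhibitor groups were then compared with each other, which uses no Collagen library in the fold change itself. Here 6 of the 31 genes were higher with DDR1i than with RUNXi and 0 were lower, where 0.347% of all genes tested were called higher with DDR1i. The 6 were *HMGCS1*, *SCD*, *MVD*, *INSIG1*, *ELOVL6* and *FDPS*. All of them had also fallen with RUNXi against Collagen, a comparison that shares the RUNXi libraries. The log2 fold change was positive for 29 of the 31, with a median of 0.36 against 0.006 over all genes tested. The compounds differ in target and in dose, and no dose was matched. The 6 epithelial markers examined were *KRT5*, *KRT14*, *KRT17*, *TP63*, *CDH1* and *EPCAM*, of which the paper takes EpCAM as luminal. They summed to 9497 to 12582 CPM with DDR1i and to 16009 to 18630 CPM with RUNXi, without overlap. The sum was led by the keratins, since *TP63*, *CDH1* and *EPCAM* reached at most 75.5, 117 and 48.2 CPM. The part of these markers in the values of the lipid genes was not tested.

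*HMGCS1* differed most, at 301 to 407 CPM with DDR1i and 167 to 257 CPM with RUNXi (log2 fold change 0.85 ± 0.13 SE, adjusted p = 0.000622). *SCD* was at 1389, 1345, 1203 and 1192 CPM with DDR1i, 1.72 times its level with RUNXi (log2 fold change 0.78 ± 0.12 SE, adjusted p = 0.000672). *MVD*, at 140.4, 98.7, 118 and 109.9 CPM with DDR1i, differed by 0.73 ± 0.13 (log2, SE, adjusted p = 0.00225). The DDR1i and RUNXi libraries did not overlap for any of these 3 genes.

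*INSIG1* differed by 0.70 ± 0.15 (log2, SE, adjusted p = 0.0198). *ELOVL6*, at 131, 148, 108 and 110.3 CPM with DDR1i, differed by 0.62 ± 0.13 (log2, SE, adjusted p = 0.0126), and *FDPS*, at 611, 508, 499.8 and 537 CPM, by 0.55 ± 0.10 (log2, SE, adjusted p = 0.00558). The same 6 genes passed with Collagen replicate 3 included, with all 4 groups in the fit and with the length trend removed. *HMGCS1*, *SCD*, *MVD* and *FDPS* passed whichever single library was left out, whereas *ELOVL6* and *INSIG1* each passed in 7 of these 11 fits. Both failed without DDR1i replicate 1, DDR1i replicate 2 or RUNXi replicate 4, *ELOVL6* also without RUNXi replicate 1 and *INSIG1* without RUNXi replicate 3. The fits in which both passed include all those without a Collagen library, which is in neither group compared. Without Collagen replicate 4, 11 of the 31 genes passed. There, 62 of all 14036 genes tested were called higher with DDR1i, against 47 of 13548 in the main fit. Among the genes that did not pass, *LSS* (0.44, adjusted p = 0.0676) and *DHCR7* (0.41, adjusted p = 0.0749) came nearest. *SREBF2* differed by 0.07 on the log2 scale (95% interval -0.17 to 0.30) and *SCAP* by -0.01 (95% interval -0.24 to 0.23).

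**Figure D4:**
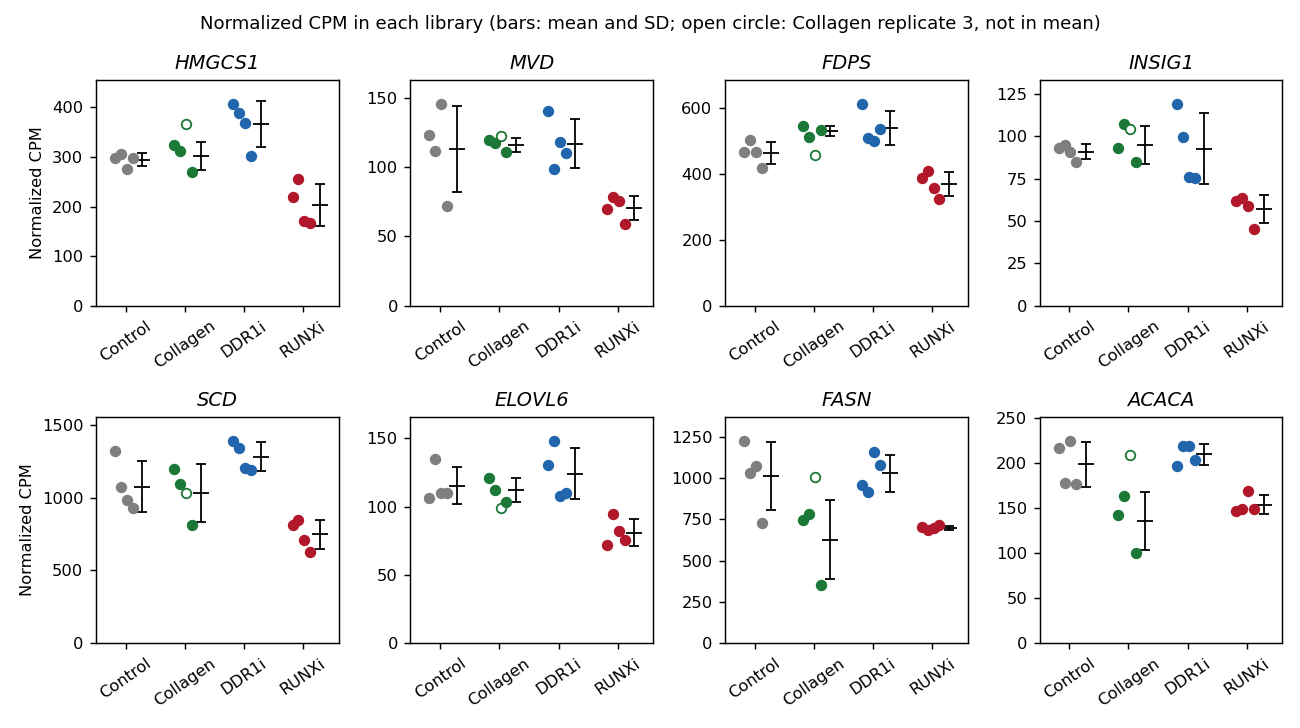
Normalized CPM in each library for 8 of the genes, with bars for the group mean and SD (n = 4, or n = 3 for Collagen, where the open circle is replicate 3 and is not in the mean). All axes start at 0. The RUNXi points of *HMGCS1*, *FDPS*, *INSIG1* and *ELOVL6* lie below every other point, and in the panels of *FASN* and *ACACA* the lowest point of all is Collagen replicate 4.

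With DDR1i, 1 of the 31 genes was higher than with Collagen alone and 0 were lower, where 1.69% of all genes tested were called higher. The median log2 fold change was 0.006, with 16 positive and 15 negative. The gene was *ACACA* (chromosome 17, 35441927 to 35766927, minus strand), the carboxylase that makes malonyl-CoA. It was at 197, 219, 219 and 203 CPM with DDR1i, at 143, 163 and 100.2 CPM in Collagen replicates 1, 2 and 4, and at 209 CPM in Collagen replicate 3, within the DDR1i range. The log2 fold change was 0.63 ± 0.14 (SE, adjusted p = 0.0146). Its adjusted p was 0.068 without Collagen replicate 4, 0.0568 without DDR1i replicate 3 and 0.457 with Collagen replicate 3 included. With the length trend removed the log2 fold change was 0.30 (adjusted p = 0.208), and the canonical transcript of *ACACA*, 10007 bases, is the longest of the 31. Against Control, which held 177 to 224 CPM, the log2 fold change was 0.08.

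*FASN* was at 961, 918, 1160.4 and 1077 CPM with DDR1i, and its log2 fold change against Collagen, 0.72 ± 0.20 (SE, adjusted p = 0.0622), did not pass. All DDR1i libraries lay above Collagen replicates 1, 2 and 4, but Collagen replicate 3, at 1008 CPM, lay among them and Control overlapped them. *SREBF2* was at 217, 220.2, 282 and 282 CPM with DDR1i and at 208, 201 and 167 CPM with Collagen, with 265 CPM in Collagen replicate 3 (log2 fold change 0.38 ± 0.12 SE, adjusted p = 0.0956). *ACACA*, *FASN* and *SREBF2* were the only genes of the 31 with every DDR1i library above the Collagen libraries tested (9.68%, where 8.44% of all genes tested were so separated). The same epithelial markers, led by the keratins and at 9497 to 12582 CPM in sum with DDR1i, summed to 14336 to 19615 CPM with Collagen.

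Collagen alone was compared with Control to see whether collagen changed these genes without any inhibitor. None of the 31 passed (0 of 13092 genes tested, 0%, were called by edgeR, with 1754 at an unadjusted p under 0.05 and 415 called by DESeq2). At an unadjusted p under 0.05, 4 of the 31 were higher and 3 lower with Collagen, where 6.42% of all genes tested were higher and 6.98% lower. The smallest p-values were those of *EBP* (log2 fold change 0.54 ± 0.14 SE, adjusted p = 0.135), *MSMO1* (0.54 ± 0.15 SE, adjusted p = 0.146) and *ACACA* (-0.55 ± 0.17 SE, adjusted p = 0.171). *EBP* stood at 151, 149, 194 and 135 CPM in Control, below the 209, 213 and 257 CPM of Collagen, but Collagen replicate 3, at 163 CPM, lay among the Control libraries. *MSMO1* showed the same order, at 125, 132, 90.4 and 131 CPM in Control and 126 CPM in Collagen replicate 3. *ACACA* was at 217, 178, 224 and 177 CPM in Control, above Collagen replicates 1, 2 and 4. DESeq2 called 4 of the 31 here (3 higher, 1 lower).

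Other genes of lipid metabolism, 34 in 4 lists, were examined for comparison. They covered SREBP processing and sterol handling (12 genes), LXR, the sterol-sensing nuclear receptor, and its targets (6), other lipogenic genes (10) and the isoprenoid branches that leave the mevalonate pathway (6). None of the 34 was called by edgeR in any of the 4 comparisons, 1 LXR list gene being too low for the test of Collagen against Control. At an unadjusted p under 0.05, 3 were higher and 2 lower with RUNXi against Collagen, 2 higher and 1 lower with DDR1i against Collagen, and 1 higher and 1 lower in each of the other comparisons. Over all genes tested, 10.8% were higher and 10.2% lower with RUNXi at that threshold, and 9.88% higher and 8.14% lower with DDR1i. The shares were 3.2% higher and 2.99% lower for DDR1i against RUNXi, and 6.42% and 6.98% for Collagen against Control. DESeq2 called 2 of the 34 higher with RUNXi (*ERLIN2* and *MBTPS1*), 1 higher with DDR1i (*NPC1*) and 0 in the other comparisons. Of all 17911 genes in that fit, DESeq2 called 639 higher with RUNXi and 504 higher with DDR1i. It called 134 of them for DDR1i against RUNXi, and 415 of 18059 for Collagen against Control. The median log2 fold change over the 34 was 0.03 with RUNXi. The genes nearest the threshold with RUNXi were *ERLIN2* (0.48, adjusted p = 0.0568), which takes part in sterol-regulated degradation at the endoplasmic reticulum, and *MBTPS1* (0.39, adjusted p = 0.0826), the protease that first cuts the SREBP precursors. Next came *GGPS1*, which makes geranylgeranyl diphosphate, with a negative value (-0.35, adjusted p = 0.122), and *NPC1*, the lysosomal cholesterol exporter (0.34, adjusted p = 0.138). With DDR1i, *NPC1* came nearest (0.43, adjusted p = 0.0819). With DDR1i against RUNXi the median over the 34 was -0.03.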

How the data were processed

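The 16 RNA-seq libraries of MCF10A cells, 4 per group, were grouped from the labels. The authors aligned reads to hg19 (GRCh37) with STAR and deposited raw counts per gene and library, as whole numbers, with genes at 0 in all libraries still listed. The counting tool, annotation and strand setting are not given in the sources used here. Columns of all 16 libraries were used. Of 26475 entries (26473 distinct names), 28 carry a calendar date as name. Gene positions and transcript lengths came from GENCODE 44 lifted to GRCh37, in which 22606 names were found, and promoters from RefSeq (GRCh38.p14).

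Counts were tested with the robust quasi-likelihood fit of edgeR 4.0.16 in R 4.3.3, after filterByExpr and TMM scaling, with Benjamini-Hochberg adjustment over all genes tested and a threshold of 0.05. The 3 comparisons of the inhibitors shared a fit of 11 libraries, without Control and Collagen replicate 3 (13548 genes, biological coefficient of variation 0.287). Collagen was compared with Control in 7 libraries (13092 genes, 0.353). All 31 genes passed the filter in both. Replicates differed by more than sampling noise (chi-square at least 18.3 times its degrees of freedom), and the procedure was tested on simulated counts. The 31 genes and the companion lists were chosen with earlier results of these data known. Values per library are given for each gene called in any comparison and, where fewer than 3 were called, for the 3 with the smallest p. Alternatives included DESeq2 1.42.0, other filters, thresholds, groups and references, a replicate block, removal of a length trend by splines with 4 degrees of freedom and leaving out each library. The same trend removal with Collagen replicate 3 included was added after the data were seen. Figures were drawn with Python 3.11.15 and matplotlib 3.10.9.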

Additional observations from a re-analysis of the deposited data

Results flagged for a closer look

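In each group of 4 libraries, the highest and the lowest value of each of the 31 genes and of the total count were set against the other 3 by Dixon's ratio. Of 128 groups of values tested, 7 held a library that stood far from its group, where about 6.4 are given by chance. In Control, *FDFT1* was at 576 CPM in replicate 4 and at 655 to 662 CPM in the others, *NSDHL* was at 82.4 CPM in replicate 2 and at 65.4 to 66.2 CPM in the others, and *ELOVL6* was at 135 CPM in replicate 2 and at 106 to 110.2 CPM in the others. With DDR1i, *SQLE* was at 284 CPM in replicate 3 and at 384 to 386 CPM in the others. With RUNXi, *INSIG2* was at 14.8 CPM in replicate 3 and at 8.06 to 9.03 CPM in the others, and *ACACA* was at 169 CPM in replicate 3 and at 147 to 149 CPM in the others. The total count of Collagen replicate 1, 17570707, was below those of the other Collagen libraries, 26642600 to 27695778. Of these genes, *INSIG2*, *SQLE* and *NSDHL* passed in none of the 4 comparisons.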

How the results depend on the processing

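For RUNXi against Collagen, where 11 of the 31 genes were called, the number was 3 with Collagen replicate 3 included, 3 with Control as the reference, 6 with the length trend removed and 5 with that removal and Collagen replicate 3 together. Leaving out each library gave 4 to 11, with 4 without RUNXi replicate 4. DESeq2 called 14, the replicate block 12 and the replicate block with Collagen replicate 3 included 8. Over all genes tested, the numbers called lower were 198 of 13548 in the main fit and 29 of 13361 with Collagen replicate 3 included. They were 21 of 13213 with Control as the reference and 119 of 12281 with the length trend removed. With that removal and Collagen replicate 3 together they were 26 of 12155. DESeq2 called 529 of 17911 lower, the replicate block 286 of 13548 and that block with Collagen replicate 3 included 79 of 13361. For DDR1i against RUNXi, where 6 were called, DESeq2, no filter on low counts and the replicate block each called 10, and leaving out each library gave 4 to 11, with 11 without Collagen replicate 4. Over all genes tested, 47 of 13548 were called higher, 75 of 17911 with DESeq2 and 92 of 17911 with no filter. The replicate block called 86 of 13548 higher, and the fit without Collagen replicate 4 called 62 of 14036. For DDR1i against Collagen, where 1 was called, DESeq2 called 3, a threshold of 0.1 gave 3, no filter and robust fitting off gave 2 each, and 0 were called with Collagen replicate 3 included (with and without the replicate block or the length trend removed), with the length trend removed and with Control as the reference. Leaving out each library gave 0 to 2, with 0 without Collagen replicate 4 or DDR1i replicate 3. Over all genes tested, 229 of 13548 were called higher, 504 of 17911 with DESeq2 and 6 of 13361 with Collagen replicate 3 included. A threshold of 0.1 gave 501 of 13548, no filter 481 of 17911 and robust fitting off 213 of 13548. With the length trend removed it was 35 of 12281, and with Control as the reference 20 of 13213. For Collagen against Control, where 0 were called, DESeq2 and no filter called 4 each and all 4 groups in a single fit 3, while leaving out each library gave 0. Over all genes tested, DESeq2 called 415 of 18059, no filter 284 of 18059 and the single fit 313 of 13731. The cause of these moves was not tested, beyond the change of samples or genes that each setting makes. Among values called in either setting, the direction turned in 2 cases, both with Control as the reference for RUNXi, to -0.54 for *FASN* (adjusted p = 0.0425) and to 0.011 for *MSMO1* (adjusted p = 0.996). Values called in neither setting had the other sign in 135 more of 2817 cases, such as *SREBF2* with DDR1i, at -0.018 with Control as the reference, and *FASN* with RUNXi, at -0.12 without Collagen replicate 4. No median over the 31 genes moved by more than the spread between replicates. Same-numbered replicates deviated together only weakly (correlations across genes of 0.0003 to 0.208, not all above 0.1), so that the numbers were not taken to pair the samples. As a hint from the data only, each library deviated most like that with its own number in 6 of 6 cases for RUNXi against Collagen, 5 of 6 for DDR1i against Collagen, 7 of 8 for DDR1i against RUNXi and 4 of 6 for Collagen against Control. Depth was not limiting for most of the 31, but the lowest counts were 49 for *TM7SF2* and 65 for *INSIG2*.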
